A study of Arabidopsis thaliana with 18 samples.

Results

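Tryptophan is made in plastids from chorismate, the last product of the shikimate pathway and the precursor of all aromatic amino acids. Anthranilate synthase commits chorismate to this branch and is held back by tryptophan itself. Its product is then joined to a phosphorylated ribose, rearranged, closed to an indole ring and finally coupled to serine by tryptophan synthase. In Arabidopsis, tryptophan serves protein synthesis and is the starting material of the hormone auxin, of indole glucosinolates and of the phytoalexin camalexin.

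The messenger RNAs described here are those of 8 enzyme genes of this route, of 32678 genes in the count files, and all 8 were found by their gene codes. They are ASA1 (AT5G05730) and ASA2 (AT2G29690) for the alpha subunit of anthranilate synthase, ASB1 (AT1G25220) for its beta subunit, TRP1 (AT5G17990) for phosphoribosylanthranilate transferase, AT2G04400 for indole-glycerol-phosphate synthase, TSA1 (AT3G54640) for the alpha subunit of tryptophan synthase, and TSB1 (AT5G54810) and TSB2 (AT4G27070) for its beta subunit. The rule that names them rests on gene function and uses no measured value, although earlier results of these data were known when they were chosen. RefSeq annotates AT2G04400 only as an aldolase-type TIM barrel protein.

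The genes lie apart from each other in the genome. By the coordinates in the count files, which are those of TAIR10, ASA1 spans 1719557 to 1722910 of chromosome 5 (minus strand) and ASA2 12693871 to 12696975 of chromosome 2 (plus strand). ASB1 spans 8836835 to 8839549 of chromosome 1 (minus strand), TRP1 5957213 to 5959905 of chromosome 5 (plus strand) and AT2G04400 1531148 to 1533737 of chromosome 2 (plus strand). TSA1 spans 20223148 to 20225523 of chromosome 3 (minus strand), TSB1 22264594 to 22266785 of chromosome 5 (minus strand) and TSB2 13586340 to 13588821 of chromosome 4 (plus strand). The counts are given per gene, so that transcripts of 1 gene are not told apart.

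RNA was sequenced from rosettes of 3-week-old Arabidopsis thaliana, each library from a pool of 10 to 15 plants. The groups were Col-S exposed to 350 ppb ozone for 2 h, Col-S control, Cvi-0 exposed to the same ozone, Cvi-0 control, Col-0 exposed to the same ozone, and Col-0 control, with 3 biological replicates in each of the 6 groups and 18 libraries in all. Most laboratory work uses the accession Col-0. Cvi-0 was collected on the Cape Verde islands, and Col-S is 1 near-isogenic line in which the ozone sensitivity of Cvi-0 was placed in a Col-0 background. The comparisons asked how ozone changed the transcripts in each genotype and whether the sensitive genotypes answered differently from Col-0.

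Total counts ranged from 14905841 to 26171613 per library, and every one of the 8 genes had at least 229 counts in each library. Markers of the rosette leaf were abundant in every library. Of 6 root markers RHD6, EXPA7 and PLT1 had no count, and the summed level of the 6 was at most 2.07 CPM (TMM-scaled counts, the unit of all levels here). The summed level of 4 flower markers was at most 3.43 CPM. The 4 leaf markers together had 19972 to 23437 CPM in Col-S ozone libraries against 40405 to 44452 CPM in Col-S controls, 14749 to 18107 CPM in Cvi-0 ozone libraries against 39775 to 43108 CPM in Cvi-0 controls, and 27180 to 36225 CPM in Col-0 ozone libraries against 44643 to 46304 CPM in Col-0 controls. The part of this shift in the results below was not tested, and in RNA from whole rosettes fewer cells of a type and less RNA per cell cannot be told apart. On the first principal component of all tested genes, which separated ozone from control libraries, replicate 2 of the Col-S ozone, Col-0 ozone and Col-0 control groups lay nearer to the other treatment than its companions. Calls among the 8 genes that change without these 3 libraries are given both ways.

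Ozone raised the messages of most of the 8 genes. The isomerase step and further isoforms are not among them and are described further below. edgeR called 7 of the 8 genes higher and 1 lower in Col-S, 7 higher and 1 lower in Cvi-0, and 6 higher and 0 lower in Col-0, where 2 were not called. Calls rest on p-values adjusted by Benjamini-Hochberg over 20622 tested genes, with 0.05 as the limit. The response was broad: of all tested genes, 34.3% were called higher and 34% lower in Col-S, 36.1% lower and 34.5% higher in Cvi-0, and 29.8% higher and 27.5% lower in Col-0. ASA1, ASB1, TRP1, AT2G04400, TSA1 and TSB1 were called higher in all 3 genotypes, as were 25.1% of tested genes. The median log2 fold change of the 8 genes was 2.61 in Col-S, 3.03 in Cvi-0 and 2.57 in Col-0, beside -0.03, -0.05 and -0.02 for all tested genes.

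**Figure D1:**
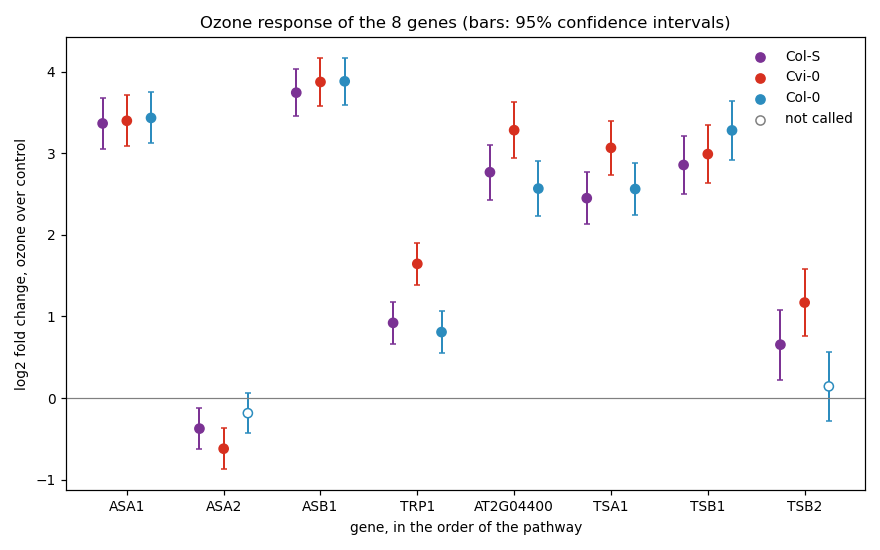
Log2 fold change of ozone over control for each of the 8 genes, in the order of the pathway, in Col-S, Cvi-0 and Col-0. Points are edgeR estimates from 3 libraries against 3, bars are 95% confidence intervals and open points were not called. ASA1, ASB1, AT2G04400, TSA1 and TSB1 lie between 2.45 and 3.88, TRP1 between 0.81 and 1.65, TSB2 between 0.14 and 1.17, and ASA2 below 0 in each genotype.

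The alpha subunit of anthranilate synthase carries the active site that converts chorismate, and the files hold both genes for it. ASA1 rose steeply in every genotype. In Col-S, ASA1 had 403, 356 and 459.8 CPM after ozone, against 35.0, 41.2 and 41.9 CPM in controls. In Cvi-0, ASA1 had 647, 588 and 609.8 CPM after ozone, against 56.9, 53.2 and 64.9 CPM in controls. In Col-0, ASA1 had 464, 346 and 466 CPM after ozone, against 37.3, 41.9 and 38.7 CPM in controls. Every ozone library lay far above every control library, and the lowest Col-0 ozone value was that of replicate 2. The log2 fold change was 3.37 (SE 0.14, adjusted p = 4.3e-12) in Col-S, 3.40 (SE 0.14, adjusted p = 3.2e-12) in Cvi-0 and 3.43 (SE 0.14, adjusted p = 7.5e-12) in Col-0, which is 10.3-fold, 10.5-fold and 10.8-fold.

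ASA2 did not follow its partner. In Col-S, ASA2 had 18.7, 22.8 and 22.1 CPM after ozone, against 26.3, 24.96 and 31.3 CPM in controls. In Cvi-0, ASA2 had 19.6, 20.9 and 19.6 CPM after ozone, against 27.2, 30.8 and 34.3 CPM in controls. In Col-0, ASA2 had 22.8, 23.3 and 26.04 CPM after ozone, against 26.2, 26.4 and 29.4 CPM in controls. The ozone values lay below the control values in each genotype without overlap, and the gap was small. ASA2 fell in Col-S, at -0.37 (SE 0.11, adjusted p = 0.008) on the log2 scale, and in Cvi-0, at -0.62 (SE 0.12, adjusted p = 1.2e-04), whereas in Col-0 its -0.18 (SE 0.11, adjusted p = 0.18) was not called. Without Col-S control replicate 3 the value in Col-S was -0.27 and no longer called (adjusted p = 0.058). With total counts in place of TMM scaling, which shifts the median of all genes to -0.14 in Col-0, ASA2 was called lower there too, at -0.31 (adjusted p = 0.042).

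ASA1 and ASA2 are related genes, and their reads can be told apart. Over 1762 aligned coding bases, 69.3% were identical, the longest identical run was 16 bases, and none of the 50-base exon stretches of either gene occurred elsewhere in the genome. The stretches below show 120 aligned coding bases of each gene, read from the RefSeq TAIR10.1 genome on the coding strand, with the 37 bases that differ in capitals.
ASA1: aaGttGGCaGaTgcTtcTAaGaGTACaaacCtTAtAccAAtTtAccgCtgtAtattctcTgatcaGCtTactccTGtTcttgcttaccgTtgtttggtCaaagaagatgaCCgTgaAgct
ASA2: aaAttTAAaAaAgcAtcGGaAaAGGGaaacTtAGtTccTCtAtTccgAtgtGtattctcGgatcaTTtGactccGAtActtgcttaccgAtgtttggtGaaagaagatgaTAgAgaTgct

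The shift between these genes was measured within each library, where depth and scaling cancel. The log2 ratio of ASA1 to ASA2 counts averaged 4.25 ± 0.25 in Col-S ozone libraries and 0.52 ± 0.18 in Col-S controls, 4.94 ± 0.12 in Cvi-0 ozone libraries and 0.92 ± 0.14 in Cvi-0 controls, and 4.13 ± 0.23 in Col-0 ozone libraries and 0.53 ± 0.13 in Col-0 controls (SD, n = 3 each). Ozone and control libraries did not overlap in any genotype. The mean difference over the 3 genotypes was 3.78, with p = 0.00025 in a 2-sided exact permutation test of the treatment labels within genotypes, the smallest value its 8000 permutations can give, and 0.00033 adjusted over the 4 ratios tested. Per kilobase of exon, ASA1 made up 95.4% ± 0.813 of the alpha subunit message after ozone and 60.9% ± 2.89 in controls of Col-S, 97.1% ± 0.230 after ozone and 67.3% ± 2.101 in controls of Cvi-0, and 94.98% ± 0.755 after ozone and 61.0% ± 2.196 in controls of Col-0.

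**Figure D2:**
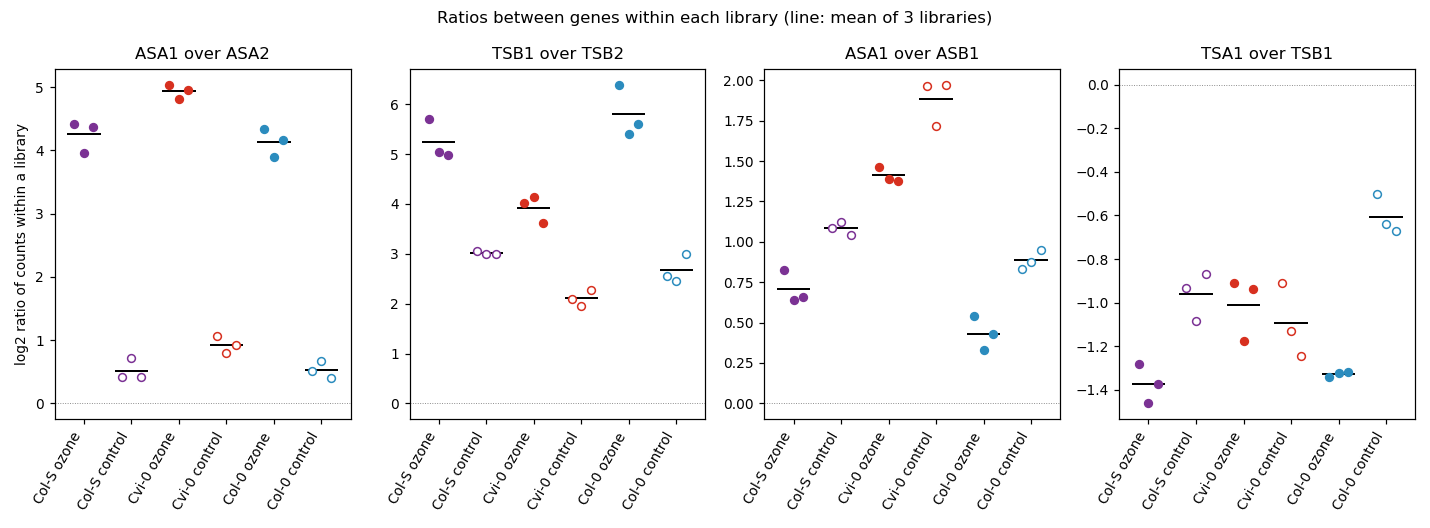
Log2 ratio of the counts of a pair of genes within each library, in panels for ASA1 over ASA2, TSB1 over TSB2, ASA1 over ASB1 and TSA1 over TSB1, with a scale of its own in each panel. Filled points are ozone and open points control libraries, and lines are means of 3 libraries. The ASA1 over ASA2 ratio lies between 3.89 and 5.04 after ozone and between 0.40 and 1.07 in controls, and only the TSA1 over TSB1 panel has a genotype, Cvi-0, in which ozone and control libraries overlap.

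The beta subunit of anthranilate synthase supplies the amino group by splitting glutamine. Its gene ASB1 had the steepest rise of the 8 in each genotype. In Col-S, ASB1 had 228, 228 and 292 CPM after ozone, against 16.5, 18.9 and 20.3 CPM in controls. In Cvi-0, ASB1 had 235, 224 and 234 CPM after ozone, against 14.6, 16.2 and 16.5 CPM in controls. In Col-0, ASB1 had 319, 276 and 346 CPM after ozone, against 21.0, 22.8 and 20.02 CPM in controls. All ozone libraries stood more than 10-fold above the controls of their genotype. Its rise on the log2 scale was 3.74 (SE 0.13, adjusted p = 9.9e-13) in Col-S, 3.87 (SE 0.13, adjusted p = 7.9e-13) in Cvi-0 and 3.88 (SE 0.13, adjusted p = 2.7e-12) in Col-0.

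The count of ASB1 is less certain than the others because part of its sequence is repeated. Of its 1215 exon stretches of 50 bases, 512 (42.1%) also occur elsewhere in the genome, and the other 7 genes share none. AT1G24807, AT1G24909, AT1G25083 and AT1G25155, near it on chromosome 1, and AT5G57890 on chromosome 5 are annotated as glutamine amidotransferase type 1 proteins and share 113 to 376 of these stretches. Every exon stretch of the first 4 has a match elsewhere, and yet they carried counts, at 22.7 to 33.8 CPM in Col-S ozone libraries against 1.66 to 3.41 CPM in Col-S controls, 77.5 to 96.4 CPM in Cvi-0 ozone libraries against 4.88 to 6.62 CPM in Cvi-0 controls, and 27.6 to 40.7 CPM in Col-0 ozone libraries against 2.17 to 3.27 CPM in Col-0 controls. How reads with several matches were counted is not given in the sources used here. ASB1 also overlaps AT1G25211, an F-box gene on the opposite strand, by 173 bases.

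Counted as 1 feature with these 5 genes, an alternative chosen after seeing the data, the beta subunit message had 391 ± 56.1 CPM in Col-S ozone libraries and 35.9 ± 4.82 CPM in Col-S controls, 633 ± 6.28 and 42.1 ± 2.15 CPM in Cvi-0 ozone and control libraries, and 492 ± 54.0 and 40.4 ± 0.512 CPM in Col-0 ozone and control libraries (SD, n = 3 each). The log2 fold change was then 3.44, 3.91 and 3.61 in Col-S, Cvi-0 and Col-0. ASB1 supplied 63.8% ± 0.377 of the sum in Col-S ozone libraries and 51.9% ± 2.79 in Col-S controls, 36.5% ± 0.629 and 37.3% ± 1.19 in Cvi-0 ozone and control libraries, and 63.8% ± 0.341 and 52.7% ± 2.89 in Col-0 ozone and control libraries. The rise with ozone was present in ASB1 alone and in the sum, and the share of ASB1 was lower in every Cvi-0 library than in any library of the other genotypes.

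**Figure D3:**
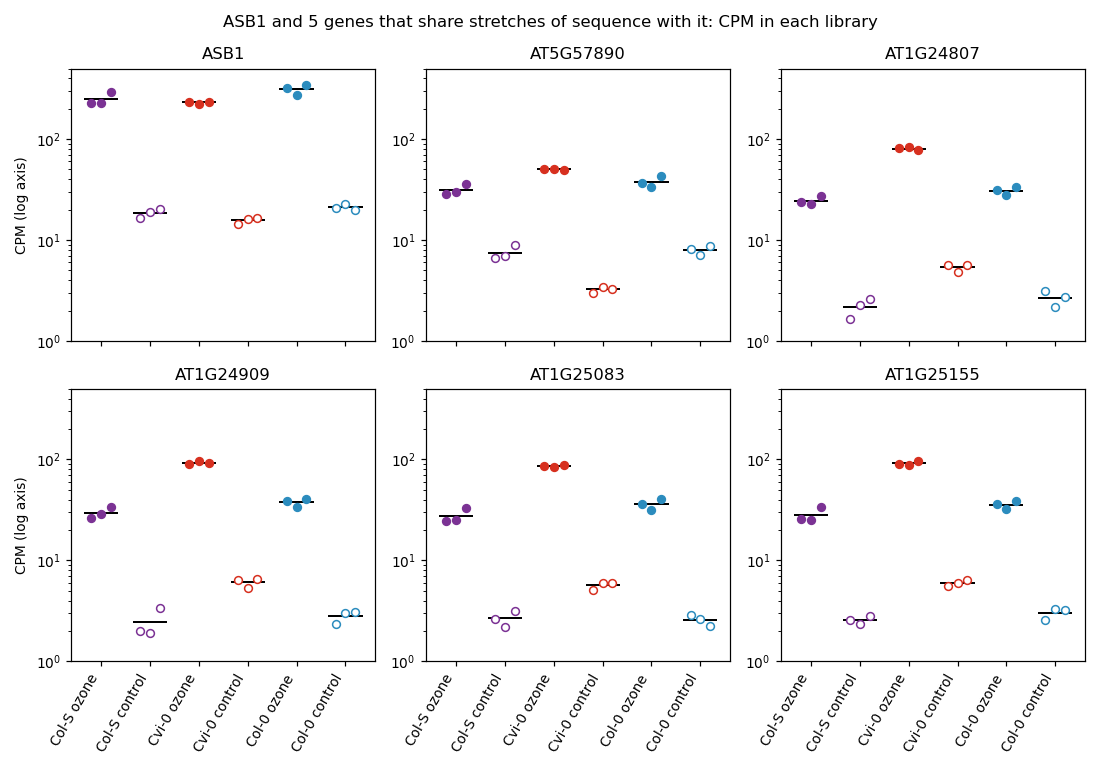
CPM on a log axis of ASB1 and of 5 genes that share stretches of sequence with it, in each of the 18 libraries. Filled points are ozone and open points control libraries, and lines are means of 3 libraries. All 6 genes are higher after ozone in each genotype, and the 4 genes of chromosome 1 beside ASB1 reach 77.5 to 96.4 CPM in Cvi-0 ozone libraries, above their 22.7 to 40.7 CPM in the other ozone libraries.

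Set against its partner subunit, ASA1 lost some ground to ASB1. The log2 ratio of ASA1 to ASB1 was 0.71 ± 0.10 in Col-S ozone libraries and 1.08 ± 0.04 in Col-S controls, 1.41 ± 0.04 in Cvi-0 ozone libraries and 1.89 ± 0.14 in Cvi-0 controls, and 0.43 ± 0.11 in Col-0 ozone libraries and 0.89 ± 0.06 in Col-0 controls (SD, n = 3 each). The mean difference was -0.44 (exact permutation p = 0.00025, adjusted 0.00033). With ASB1 summed with its 5 relatives it was -0.26 (adjusted p = 0.0043), and uneven over the genotypes. The log2 fold change of the sum was 3.44 in Col-S, 3.91 in Cvi-0 and 3.61 in Col-0. That of ASA1 was 3.37, 3.40 and 3.43 in the same order, so that the gap was widest in Cvi-0 and narrow in Col-S. The sizes are small beside the rise of more than 10-fold that both subunits share.

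TRP1 joins anthranilate to the phosphorylated ribose. Its log2 fold change was below those of ASA1, ASB1, AT2G04400 and TSA1 in each genotype, although the difference between genes was not tested. In Col-S, TRP1 had 156, 157 and 181 CPM after ozone, against 81.1, 88.6 and 90.9 CPM in controls. In Cvi-0, TRP1 had 189, 228 and 178 CPM after ozone, against 65.3, 62.5 and 62.2 CPM in controls. In Col-0, TRP1 had 139, 136 and 177 CPM after ozone, against 84.4, 87.4 and 86.4 CPM in controls. The groups did not overlap in any genotype, and the Cvi-0 controls were the lowest of all libraries. On the log2 scale the rise was 0.92 (SE 0.12, adjusted p = 2.2e-06) in Col-S, 1.65 (SE 0.12, adjusted p = 1.9e-09) in Cvi-0 and 0.81 (SE 0.12, adjusted p = 1.5e-05) in Col-0. The rise in Cvi-0 exceeded that in Col-0 by 0.84 (95% interval 0.48 to 1.20, adjusted p = 0.0019), and the rise in Col-S minus that in Cvi-0 was -0.72 (95% interval -1.08 to -0.36, adjusted p = 0.015). TRP1 overlaps AT5G18000, on the opposite strand, by 6 bases.

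AT2G04400, for the enzyme that closes the indole ring, rose in all 3 genotypes. In Col-S, AT2G04400 had 341, 326 and 378 CPM after ozone, against 44.2, 53.6 and 55.4 CPM in controls. In Cvi-0, AT2G04400 had 490.1, 539 and 447 CPM after ozone, against 51.2, 49.2 and 51.2 CPM in controls. In Col-0, AT2G04400 had 305, 258 and 372 CPM after ozone, against 47.2, 63.6 and 46.8 CPM in controls. The controls of the 3 genotypes overlapped, and the 3 Cvi-0 ozone libraries were the highest of all 18. The log2 fold change was 2.77 (SE 0.15, adjusted p = 7.3e-11) in Col-S, 3.28 (SE 0.16, adjusted p = 1.2e-11) in Cvi-0 and 2.57 (SE 0.15, adjusted p = 3.1e-10) in Col-0. The response in Cvi-0 minus that in Col-0 was 0.72 (95% interval 0.27 to 1.16, adjusted p = 0.019). That call was lost without Col-0 control replicate 2, at 0.55 (adjusted p = 0.061), without Col-0 ozone replicate 2, at 0.60 (adjusted p = 0.052), and without the 3 libraries named above, at 0.44 (adjusted p = 0.12). AT2G04400 shares 41 bases with AT2G04410 on the opposite strand.

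Tryptophan synthase has an alpha subunit that releases indole and a beta subunit that joins it to serine. TSA1, the gene of the alpha subunit, rose in all 3 genotypes. In Col-S, TSA1 had 338, 255 and 338 CPM after ozone, against 52.3, 53.9 and 63.9 CPM in controls. In Cvi-0, TSA1 had 557, 591 and 509 CPM after ozone, against 70.7, 61.2 and 66.0 CPM in controls. In Col-0, TSA1 had 415, 291 and 396 CPM after ozone, against 59.8, 64.2 and 62.6 CPM in controls. The Cvi-0 ozone libraries again lay above all others, and replicate 2 was the lowest ozone library in Col-S and in Col-0. These are log2 fold changes of 2.45 (SE 0.15, adjusted p = 1.9e-10) in Col-S, 3.07 (SE 0.15, adjusted p = 1.7e-11) in Cvi-0 and 2.56 (SE 0.15, adjusted p = 2.2e-10) in Col-0.

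TSA1 lies on chromosome 3 in a stretch where Col-S resembles Cvi-0. Within 500 kb on either side of it, 19 genes were called with at least a 2-fold gap in controls of Cvi-0 against those of Col-0, and for 17 of them (89.5%) the mean of the Col-S controls was closer to that of Cvi-0. Over the whole genome this held for 250 of 2296 such genes (10.9%), and around the other 7 genes for 2.70% to 15%. The ozone response of TSA1 in Col-S minus that in Cvi-0 was -0.62 (95% interval -1.05 to -0.18, adjusted p = 0.093), not called, and minus that in Col-0 it was -0.11 (95% interval -0.54 to 0.32, adjusted p = 0.83), not called. With DESeq2 the first of these differences was called, at -0.64 (adjusted p = 0.047), and likewise without Col-0 ozone replicate 2, at -0.64 (adjusted p = 0.036), a library of neither genotype that shares the fit and the scaling.

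TSB1 had the most abundant message of the 8 and rose steeply. In Col-S, TSB1 had 819, 701 and 876 CPM after ozone, against 99.7, 114 and 117 CPM in controls. In Cvi-0, TSB1 had 1048, 1337 and 976 CPM after ozone, against 133, 134 and 156 CPM in controls. In Col-0, TSB1 had 1051, 729 and 987 CPM after ozone, against 84.7, 100.1 and 99.8 CPM in controls. Ozone and control libraries were separated widely in each genotype. Log2 fold changes were 2.86 (SE 0.16, adjusted p = 9.1e-11) in Col-S, 2.99 (SE 0.16, adjusted p = 5.1e-11) in Cvi-0 and 3.28 (SE 0.16, adjusted p = 4.5e-11) in Col-0.

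TSB2, for the same subunit, answered by genotype. In Col-S, TSB2 had 15.7, 21.2 and 27.6 CPM after ozone, against 12.0, 14.3 and 14.5 CPM in controls. In Cvi-0, TSB2 had 64.8, 76.3 and 79.7 CPM after ozone, against 31.002, 34.7 and 32.3 CPM in controls. In Col-0, TSB2 had 12.5, 17.3 and 20.3 CPM after ozone, against 14.4, 18.2 and 12.5 CPM in controls. The groups did not overlap in Cvi-0 or in Col-S, where the gap was small, and overlapped in Col-0. TSB2 rose in Cvi-0 by 1.17 (SE 0.19, adjusted p = 3.1e-05) and in Col-S by 0.65 (SE 0.20, adjusted p = 0.0072) on the log2 scale, and in Col-0 the log2 fold change of 0.14 (95% interval -0.28 to 0.57, adjusted p = 0.56) was not called. The call in Col-S was lost without Col-S ozone replicate 3, at 0.44 (adjusted p = 0.058). The response in Cvi-0 exceeded that in Col-0 by 1.03 (95% interval 0.43 to 1.62, adjusted p = 0.013), and without the 3 libraries named above the difference was 0.90 (adjusted p = 0.070).

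The coding sequences of TSB1 and TSB2 are close, 85.4% identical over 1404 aligned bases. The longest identical run was 35 bases and no 50-base exon stretch of either occurred elsewhere, so that longer reads can be assigned. The aligned stretches below, of 120 coding bases from the RefSeq TAIR10.1 genome, carry the 18 differing bases in capitals.
TSB1: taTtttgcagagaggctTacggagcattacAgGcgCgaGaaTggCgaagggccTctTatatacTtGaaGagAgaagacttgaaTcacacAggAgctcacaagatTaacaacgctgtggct
TSB2: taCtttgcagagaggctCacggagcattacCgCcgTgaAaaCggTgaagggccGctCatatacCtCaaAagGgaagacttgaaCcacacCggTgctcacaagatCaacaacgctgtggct

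Within libraries, the balance moved toward TSB1 in all 3 genotypes. The log2 ratio of TSB1 to TSB2 was 5.24 ± 0.40 in Col-S ozone libraries and 3.02 ± 0.03 in Col-S controls, 3.92 ± 0.27 in Cvi-0 ozone libraries and 2.11 ± 0.16 in Cvi-0 controls, and 5.80 ± 0.53 in Col-0 ozone libraries and 2.67 ± 0.29 in Col-0 controls (SD, n = 3 each). The mean difference was 2.39 (exact permutation p = 0.00025, adjusted 0.00033). Per kilobase of exon, TSB1 held 97.6% ± 0.580 of the beta subunit message after ozone and 90.1% ± 0.176 in controls of Col-S, 94.4% ± 1.03 after ozone and 82.8% ± 1.59 in controls of Cvi-0, and 98.4% ± 0.532 after ozone and 87.6% ± 2.07 in controls of Col-0.

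The ratio between the subunits of tryptophan synthase was measured in the same way. The log2 ratio of TSA1 to TSB1 was -1.37 ± 0.09 in Col-S ozone libraries and -0.96 ± 0.11 in Col-S controls, -1.01 ± 0.15 in Cvi-0 ozone libraries and -1.09 ± 0.17 in Cvi-0 controls, and -1.33 ± 0.01 in Col-0 ozone libraries and -0.61 ± 0.09 in Col-0 controls (SD, n = 3 each). Its mean difference of -0.35 had an exact permutation p of 0.0077 (also 0.0077 after adjustment), with differences of -0.41, 0.08 and -0.72 in Col-S, Cvi-0 and Col-0. In Cvi-0 the ozone and control libraries overlapped.

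**Figure D4:**
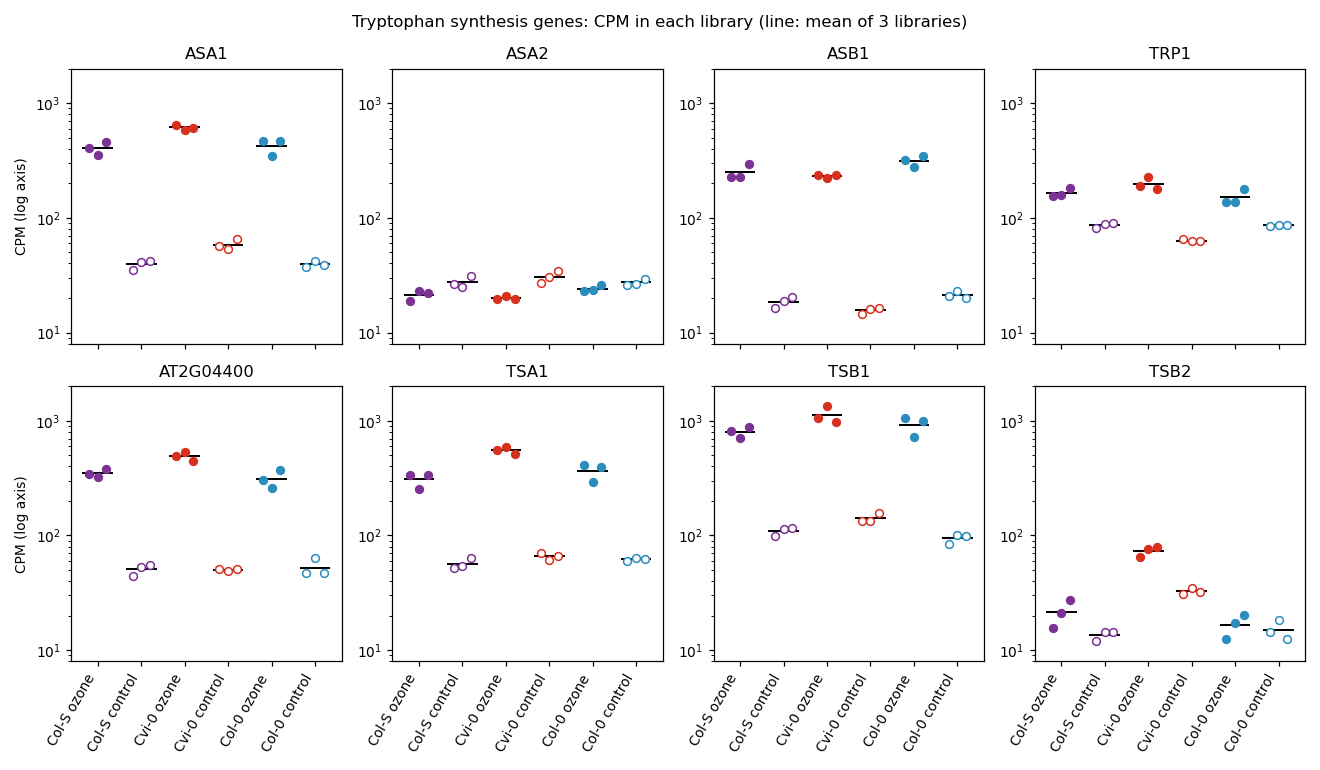
CPM on a log axis of the 8 genes in each of the 18 libraries, by group. Filled points are ozone and open points control libraries, and lines are means of 3 libraries. ASA1, ASB1, AT2G04400, TSA1 and TSB1 separate by treatment, ASA2 lies between 18.7 and 34.3 CPM throughout, and TSB2 is highest in Cvi-0.

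Levels of different genes were compared per kilobase of exon, with exon lengths from RefSeq for TAIR10.1 and not from the annotation used for counting. In Col-S ozone libraries the order was TSB1 at 447 ± 49.8, AT2G04400 at 244 ± 18.6, TSA1 at 213 ± 32.96 and ASA1 at 184 ± 23.6 CPM per kb (mean ± SD, n = 3, as in the other groups). Below these came ASB1 at 156 ± 23.04, TRP1 at 78.2 ± 6.74, TSB2 at 10.8 ± 2.98 and ASA2 at 8.87 ± 0.917 CPM per kb. In Col-S controls the order was TSB1 at 61.7 ± 5.15, TRP1 at 41.3 ± 2.44, TSA1 at 39.0 ± 4.33 and AT2G04400 at 35.8 ± 4.21 CPM per kb. Below these came ASA1 at 17.9 ± 1.72, ASB1 at 11.6 ± 1.22, ASA2 at 11.5 ± 1.40 and TSB2 at 6.80 ± 0.693 CPM per kb. After ozone in Col-S, TSA1 did not differ from its neighbours in the order by more than the larger SD, nor did TSB2 from ASA2. Among Col-S controls this held for TRP1, TSA1 and AT2G04400 and for ASB1 and ASA2.

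In Cvi-0 ozone libraries the order was TSB1 at 627 ± 107, TSA1 at 379 ± 28.4, AT2G04400 at 344 ± 32.2 and ASA1 at 279 ± 13.6 CPM per kb. Below these came ASB1 at 145 ± 3.79, TRP1 at 94.1 ± 12.6, TSB2 at 36.8 ± 3.89 and ASA2 at 8.36 ± 0.313 CPM per kb. In Cvi-0 controls the order was TSB1 at 78.8 ± 7.41, TSA1 at 45.3 ± 3.25, AT2G04400 at 35.4 ± 0.810 and TRP1 at 30.1 ± 0.819 CPM per kb. Below these came ASA1 at 26.5 ± 2.69, TSB2 at 16.3 ± 0.929, ASA2 at 12.8 ± 1.49 and ASB1 at 9.86 ± 0.640 CPM per kb. In Cvi-0 each neighbouring pair lay further apart than the larger of its SDs, in both groups. By its own count ASB1 was the lowest of the 8 in Cvi-0 controls and above TRP1 after ozone. Its share of the sum with its 5 relatives was 37.3% in Cvi-0 controls, against 52.7% in Col-0 and 51.9% in Col-S controls. Whether the assignment of shared reads lowers its place in Cvi-0 was not tested.

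In Col-0 ozone libraries the order was TSB1 at 516 ± 95.3, TSA1 at 252 ± 45.8, AT2G04400 at 218 ± 39.8 and ASB1 at 197 ± 22.2 CPM per kb. Below these came ASA1 at 193 ± 30.98, TRP1 at 71.7 ± 10.98, ASA2 at 10.05 ± 0.724 and TSB2 at 8.34 ± 1.98 CPM per kb. In Col-0 controls the order was TSB1 at 53.1 ± 4.95, TSA1 at 42.7 ± 1.55, TRP1 at 40.9 ± 0.725 and AT2G04400 at 36.8 ± 6.71 CPM per kb. Below these came ASA1 at 17.8 ± 1.07, ASB1 at 13.3 ± 0.896, ASA2 at 11.4 ± 0.736 and TSB2 at 7.53 ± 1.45 CPM per kb. In Col-0 ozone libraries no step of the order from TSA1 through AT2G04400 and ASB1 to ASA1 exceeded the larger SD, nor did that from ASA2 to TSB2. In Col-0 controls this held for TRP1 and AT2G04400. TSB1 led in all 6 groups, and TRP1 stood among the middle enzymes in controls and below them after ozone.

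The genotypes were then compared directly. Between Cvi-0 and Col-0 the ozone responses of TRP1, AT2G04400 and TSB2 differed, all larger in Cvi-0, which is 3 of the 8 genes against a background of 11.1% of tested genes called higher and 10.3% called lower. Without the 3 libraries named above, TRP1 alone was called. The other 5 genes were not called. For ASA1 the difference was -0.04 (95% interval -0.44 to 0.37, adjusted p = 0.92), for ASA2 -0.44 (95% interval -0.79 to -0.08, adjusted p = 0.064), for ASB1 -0.01 (95% interval -0.38 to 0.37, adjusted p = 0.99), for TSA1 0.50 (95% interval 0.07 to 0.94, adjusted p = 0.08) and for TSB1 -0.29 (95% interval -0.76 to 0.18, adjusted p = 0.36). ASA2 was called without Cvi-0 control replicate 1, at -0.52 (adjusted p = 0.039), and TSA1 without Col-0 ozone replicate 1, at 0.60 (adjusted p = 0.049).

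Between Col-S and Col-0, edgeR called no difference in response among the 8 genes, and none had an unadjusted p under 0.05. DESeq2 also called 0. Of all tested genes 2.94% were called higher and 0.325% lower. The estimates ran from -0.42 (95% interval -0.89 to 0.04, adjusted p = 0.32) for TSB1 to 0.51 (95% interval -0.09 to 1.12, adjusted p = 0.36) for TSB2. Between Col-S and Cvi-0, TRP1 was the only one called, beside 2.2% of tested genes called lower and 2.66% called higher. For AT2G04400 the value was -0.52 (95% interval -0.96 to -0.07, adjusted p = 0.19) and for TSB2 -0.52 (95% interval -1.11 to 0.08, adjusted p = 0.37). These 3 comparisons share their control and ozone libraries, so their values stand side by side and are not independent.

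Without ozone, Cvi-0 differed from Col-0 in 5 of the 8 genes, of which 3 were higher and 2 lower, against 12.2% and 11.8% of tested genes. ASA1 was higher in Cvi-0 controls by 0.57 (SE 0.13, adjusted p = 0.0042), TSB1 by 0.57 (SE 0.15, adjusted p = 0.011) and TSB2 by 1.11 (SE 0.19, adjusted p = 3.7e-04) on the log2 scale. TRP1 was lower in Cvi-0 controls, at -0.44 (SE 0.12, adjusted p = 0.0099). ASB1 was lower by itself, at -0.43 (SE 0.12, adjusted p = 0.016), but the sum of ASB1 and its 5 relatives gave 0.06 (adjusted p = 0.77), and the call of ASB1 was lost without Col-0 control replicate 2, at -0.38 (adjusted p = 0.066), or Cvi-0 control replicate 1, at -0.38 (adjusted p = 0.063). That of TSB1 was lost without Col-0 control replicate 1, at 0.49 (adjusted p = 0.055), or Cvi-0 control replicate 3, at 0.49 (adjusted p = 0.055). ASA2, AT2G04400 and TSA1 were not called, at 0.17, -0.06 and 0.08.

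Col-S controls differed from Col-0 controls in none of the 8 genes by edgeR, by DESeq2 or at an unadjusted p under 0.05, beside 0.339% of tested genes called higher and 0.504% called lower. The widest estimates were 0.22 (95% interval -0.11 to 0.55, adjusted p = 1.00) for TSB1 and -0.19 (95% interval -0.46 to 0.07, adjusted p = 0.98) for ASB1. Against Cvi-0 controls, Col-S controls were lower in ASA1, at -0.57 (SE 0.13, adjusted p = 0.0046), and in TSB2, at -1.26 (SE 0.20, adjusted p = 1.2e-04), and higher in TRP1, at 0.46 (SE 0.12, adjusted p = 0.0089). Of all tested genes 10.9% were called lower and 10.2% higher in this comparison. Of the 8 genes, TSB2 had the widest difference between genotypes in controls.

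The sequences before the start of transcription were read for ASA1, ASA2, ASB1 and TSB2, since these genes moved apart or together with ozone. The windows hold the 250 bases before the RefSeq start on TAIR10.1, on the strand of the gene, at chr5:1722934-1723183 (minus strand) for ASA1, chr2:12693484-12693733 (plus strand) for ASA2, chr1:8839610-8839859 (minus strand) for ASB1 and chr4:13586018-13586267 (plus strand) for TSB2. Capitals mark matches on either strand to TTGAC, the core of the W-box bound by WRKY factors, to GCCGCC, the GCC box of ethylene response factors, to CACGTG, the G-box, or to TGACG.
ASA1: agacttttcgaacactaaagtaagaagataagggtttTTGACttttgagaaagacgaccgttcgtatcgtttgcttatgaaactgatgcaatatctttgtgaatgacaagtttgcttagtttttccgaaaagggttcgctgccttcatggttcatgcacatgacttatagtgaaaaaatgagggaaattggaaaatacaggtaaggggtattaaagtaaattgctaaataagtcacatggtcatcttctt
ASA2: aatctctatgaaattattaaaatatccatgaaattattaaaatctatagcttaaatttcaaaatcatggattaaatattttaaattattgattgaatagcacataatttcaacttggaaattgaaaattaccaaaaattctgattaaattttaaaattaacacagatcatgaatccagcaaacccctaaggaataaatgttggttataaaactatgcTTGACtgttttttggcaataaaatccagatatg
ASB1: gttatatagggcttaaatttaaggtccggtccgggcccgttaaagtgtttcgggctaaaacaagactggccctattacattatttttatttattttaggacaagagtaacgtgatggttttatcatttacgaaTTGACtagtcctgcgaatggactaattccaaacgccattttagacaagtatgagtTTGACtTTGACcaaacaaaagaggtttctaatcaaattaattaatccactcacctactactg
TSB2: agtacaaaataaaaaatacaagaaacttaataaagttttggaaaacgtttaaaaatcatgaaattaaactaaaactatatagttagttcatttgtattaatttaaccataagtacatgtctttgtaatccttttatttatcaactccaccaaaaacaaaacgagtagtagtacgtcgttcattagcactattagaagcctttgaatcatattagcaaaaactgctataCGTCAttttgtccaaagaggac

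The core TTGAC was present in the windows of ASA1, ASA2, ASB1, TRP1, AT2G04400 and TSA1 and in 44.96% of 26706 windows of protein-coding genes. ASB1 held 3 matches, and 3.381% of all windows held at least 3. ASA1 and ASA2, which moved apart, held 1 each, and TSB2 held none. CACGTG was found in the window of AT2G04400 (6.583% of all windows), TGACG in that of TSB2 (18.61%) and GCCGCC in none of these windows (1.854%). TTGAC and TGACG share bases where they overlap as TTGACG. A match is a run of letters and was not tested as a site. The windows of TRP1 and TSA1 run into a neighbouring gene and are not shown.

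Genes with the pattern most like ASA1 or ASA2 were ranked among 17362 genes by the root mean square difference of log2 CPM, each gene centred on its own mean, over the 18 libraries. Closest to ASA1 were AT4G28550 (0.193), MAPR3 (0.202), TSB1 (0.233), AT1G18210 (0.240) and AT1G03370 (0.241), so that TSB1 had rank 3 of all genes. Among the other genes of the 8, AT2G04400 ranked 69, TSA1 141 and ASB1 284, and TRP1, TSB2 and ASA2 came at 2637, 4776 and 10695. Closest to ASA2 were ASP1 (0.0768), TIM44-2 (0.0840), TOM22-V (0.0842), AT1G24510 (0.0853) and AT3G13882 (0.0867). These values describe likeness over 6 groups and say nothing of function.

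The wider pathway was followed through gene lists, and the values below are log2 fold changes of ozone over control unless given in CPM or counts. Of 10 genes of the shikimate pathway, which feeds chorismate into this branch, 9 were higher, 0 lower and 1 not called in Col-S, 9 higher in Cvi-0 and 9 higher in Col-0. The median log2 fold changes were 1.02 in Col-S, 1.06 in Cvi-0 and 0.66 in Col-0, beside -0.03, -0.05 and -0.02 for all tested genes. Calls of a rise made up 34.3% of all tested genes for Col-S, 34.5% for Cvi-0 and 29.8% for Col-0. Calls of a fall made up 34%, 36.1% and 27.5%, in the same order. With total counts in place of TMM scaling, 7 of the 10 were higher in each genotype. Single libraries also mattered in Col-0 and Cvi-0. In Col-0, AT1G48860 lost its call without any 1 of the Col-0 controls, and DHS2 without Col-0 ozone replicate 1, at 0.25 (adjusted p = 0.065). In Cvi-0, DHS2 lost its call without Cvi-0 control replicate 2, at 0.19 (adjusted p = 0.13). SK2 did so there without Cvi-0 control replicate 3, at 0.28 (adjusted p = 0.066). In Col-S 10 were higher with the replicate block, through SK2 at 0.25 (adjusted p = 0.045), and 8 without the 3 libraries named above, where SK1 at 0.32 (adjusted p = 0.079) and DHS2 at 0.19 (adjusted p = 0.081) were no longer called and SK2 was. DHS1, an entry enzyme of the pathway, rose by 2.24 on the log2 scale in Col-S, 2.64 in Cvi-0 and 2.03 in Col-0. AT1G22410, annotated as a synthase of the same family, rose by 4.002, 4.26 and 2.81. The EPSP synthase gene AT2G45300, whose enzyme is the target of glyphosate, rose by 3.07, 3.19 and 2.41, and the chorismate synthase gene EMB1144 by 2.04, 2.05 and 1.33.

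Of 8 further genes of tryptophan synthesis or related to it, 2 were higher and 4 lower in Col-S, 2 higher and 6 lower in Cvi-0, and 2 higher and 3 lower in Col-0. Over all tested genes 34.3% were higher and 34% lower in Col-S, 34.5% and 36.1% in Cvi-0, with 29.8% higher and 27.5% lower in Col-0. The medians of the list were -0.36, -0.79 and 0.11, beside -0.03, -0.05 and -0.02 for all tested genes. AT5G57890, the relative of ASB1, rose by 2.07 in Col-S, 3.93 in Cvi-0 and 2.24 in Col-0, and shares 17.6% of its 50-base stretches with other places. AT5G28237, annotated as a pyridoxal-phosphate-dependent enzyme, had 229 counts over the 3 Col-S ozone libraries against 4 in Col-S controls, 391 against 6 in Cvi-0 and 75 against 7 in Col-0. PAI1, PAI2 and PAI3 encode the isomerase of the step after TRP1, and none was called higher. Their counts are uncertain, since 70.3% of the 50-base exon stretches of PAI1, 65.4% of those of PAI2 and 6.41% of those of PAI3 occur elsewhere in the genome. PAI1 had a log2 fold change of -0.52 (adjusted p = 7.1e-04) in Col-S, -0.74 (adjusted p = 1.7e-05) in Cvi-0 and -0.12 (adjusted p = 0.40) in Col-0. PAI2 had -0.19 (adjusted p = 0.32), -0.94 (adjusted p = 9.7e-05) and 0.35 (adjusted p = 0.083). PAI3 had -0.96 (adjusted p = 3.7e-04), -0.83 (adjusted p = 0.0052) and -0.59 (adjusted p = 0.016). The call of PAI3 in Col-0 was lost without Col-0 control replicate 2, at -0.49 (adjusted p = 0.072), without Col-0 ozone replicate 1, at -0.45 (adjusted p = 0.086), and without the 3 libraries named above, at -0.53 (adjusted p = 0.095). Without Col-0 ozone replicate 2, PAI2 was called higher in Col-0, at 0.46 (adjusted p = 0.049), and TSBtype2 as well, at 0.46 (adjusted p = 0.019), which made 4 genes of this list higher there. The replicate block gave the same number, with PAI2 at 0.35 (adjusted p = 0.034) and TSBtype2 at 0.33 (adjusted p = 0.018), and a fit of only the groups compared gave 1.

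The remaining genes of that list were lower or not called. PAI2, AT5G48220 and AT4G02610 each overlap a gene on the opposite strand, as does EMB1144, and whether counting used strand is not stated. The TIM barrel genes AT5G48220 and AT4G02610, annotated in the same family as AT2G04400, fell in all 3 genotypes, with -0.83, -1.04 and -0.57 for AT5G48220 and -0.71, -1.12 and -0.71 for AT4G02610 in Col-S, Cvi-0 and Col-0. AT5G48220 was listed as a further gene of indole-glycerol-phosphate synthase, and AT4G02610 under the name INS and not as this enzyme. TSBtype2, a distant beta subunit, had -0.12 (adjusted p = 0.50) in Col-S, -0.53 (adjusted p = 0.006) in Cvi-0 and 0.33 (adjusted p = 0.078) in Col-0. Without the 3 libraries named above the value in Col-0 was 0.46 (adjusted p = 0.029).

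The branch to phenylalanine and tyrosine competes for chorismate. Of its 12 genes 4 were higher and 3 lower in Col-S, 5 higher and 5 lower in Cvi-0, and 4 higher and 2 lower in Col-0. Most of these shares lie near those of all tested genes, 34.3% higher and 34% lower in Col-S, 34.5% and 36.1% in Cvi-0, with 29.8% higher and 27.5% lower in Col-0, and nothing is read from them. The medians were 0.24, -0.09 and 0.26. With the replicate block, in the comparison taken as paired, 6 were higher in Col-S, with ADT1 at 0.29 (adjusted p = 0.020) and ADT6 at 0.39 (adjusted p = 0.029) added. Without the 3 libraries named above 7 were higher and 1 lower in Col-0. The number lower in Col-0 was 0 without Col-0 ozone replicate 1, and 1 when replicate 2 or replicate 3 of the Col-0 controls, replicate 2 of Col-0 ozone or replicate 3 of Cvi-0 ozone was left out. The arogenate dehydratase gene ADT4 rose by 4.22, 4.41 and 3.35 in Col-S, Cvi-0 and Col-0, and ADT5 by 4.54, 5.64 and 2.12. CM1, a chorismate mutase at the entry of the branch, had -0.42 (adjusted p = 0.018), -0.11 (adjusted p = 0.52) and -0.48 (adjusted p = 0.01). Its call was lost in Col-S without Col-S control replicate 2 (-0.28, adjusted p = 0.11), Col-S ozone replicate 2 (-0.27, adjusted p = 0.10) or the 3 libraries named above (-0.24, adjusted p = 0.15) and with only the groups compared (-0.39, adjusted p = 0.076), and in Col-0 without Col-0 ozone replicate 1 (-0.39, adjusted p = 0.055). The isochorismate synthase gene ICS1 (EDS16 in the name table), which takes chorismate to salicylic acid, rose by 5.49, 6.51 and 3.16. Its relative ICS2 had -0.91 (adjusted p = 0.031), 0.54 (adjusted p = 0.21) and -0.56 (adjusted p = 0.19), and the call in Col-S was lost without Col-S control replicate 1, without replicate 1 or replicate 2 of Col-S ozone, or without the 3 libraries named above.

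Of 10 genes that use tryptophan, 5 were higher and 3 lower in Col-S, 6 higher and 3 lower in Cvi-0, and 5 higher and 2 lower in Col-0, with medians of 0.29, 2.39 and 0.38. The share lower in Col-S and Cvi-0 is near that of all tested genes, 34% and 36.1%, and the share higher is set against 34.3% in Col-S, 34.5% in Cvi-0 and 29.8% in Col-0. CYP79B2 and CYP79B3 turn tryptophan into indole-3-acetaldoxime, the precursor of camalexin and indole glucosinolates. CYP79B2 rose by 1.41 in Col-S, 4.60 in Cvi-0 and 0.88 in Col-0. CYP79B3 rose in Cvi-0 by 2.44 (SE 0.20, adjusted p = 9.9e-09), and the response in Cvi-0 exceeded that in Col-0 by 2.87 (adjusted p = 4.6e-06). In Col-0 it had -0.43 (adjusted p = 0.064), which was called lower without Col-0 ozone replicate 2, at -0.61 (adjusted p = 0.011), without Col-S ozone replicate 1, at -0.43 (adjusted p = 0.036), without the 3 libraries named above, at -0.61 (adjusted p = 0.018), with the replicate block (adjusted p = 0.046) and with total counts (adjusted p = 0.019). In Col-S it was lower at -0.46 (adjusted p = 0.041), a call that was lost when any of the 3 Col-S controls, Col-S ozone replicate 1 or Cvi-0 ozone replicate 3 was left out, with adjusted p-values from 0.054 to 0.21. It was lost as well with DESeq2 size factors (adjusted p = 0.057) and with the DESeq2 Wald test (adjusted p = 0.053). The camalexin genes CYP71A13 and PAD3 rose, CYP71A13 by 6.80, 7.95 and 5.61 and PAD3 by 9.51, 8.04 and 7.80. Low and scattered controls enter these sizes. PAD3 had 1.31 ± 0.0904, 4.21 ± 3.34 and 4.89 ± 5.65 CPM in Col-S, Cvi-0 and Col-0 controls, and 953, 1113 and 1130 CPM after ozone (mean, SD for controls, n = 3). For the response in Col-S minus that in Col-0, 0 of the 10 genes were called. TAA1, an aminotransferase of auxin synthesis, fell in Cvi-0, at -1.59 (SE 0.19, adjusted p = 9.9e-07), with -0.30 (adjusted p = 0.17) in Col-S and 0.08 (adjusted p = 0.76) in Col-0. Its response in Cvi-0 minus that in Col-0 was -1.67 (adjusted p = 4.0e-04), and in Col-S it was called lower without Col-S ozone replicate 1, at -0.50 (adjusted p = 0.040).

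Among 6 regulators tied to these routes, 5 were higher and 1 lower in Col-S and in Cvi-0, and 4 higher and 1 lower in Col-0, with medians of 5.35, 5.57 and 5.07. The share of all tested genes called higher was 34.3% for Col-S, 34.5% for Cvi-0 and 29.8% for Col-0. The share called lower was 34%, 36.1% and 27.5%, and the median of all tested genes -0.03, -0.05 and -0.02, in the same order. ORA47, a regulator that responds to jasmonate and is named here after its values were seen, rose by 3.20 in Col-S and 6.11 in Cvi-0, and had -1.02 (adjusted p = 0.18) in Col-0. Its response in Col-S minus that in Col-0 was 4.22 (adjusted p = 0.014), and in Cvi-0 minus that in Col-0 it was 7.13 (adjusted p = 6.1e-05). With either Col-0 control replicate 2 or replicate 3 of Col-0 ozone left out it was called lower in Col-0, at -1.55 (adjusted p = 0.019) and -1.90 (adjusted p = 0.033), which made 2 lower genes there. The gene lower in all 3 genotypes was MYB34, a regulator of indole glucosinolate synthesis that is known to act on ASA1, with 7.02 ± 3.51 CPM in Col-S ozone libraries against 39.2 ± 3.92 CPM in Col-S controls, 1.44 ± 0.0493 against 6.04 ± 1.49 CPM in Cvi-0, and 9.75 ± 3.37 against 37.5 ± 5.65 CPM in Col-0. Its relatives went up. MYB51 rose by 4.63, 4.59 and 4.86, and MYB122, which had few or no counts in controls, had 6.00 ± 0.601 CPM in Col-S ozone libraries, 1.68 ± 0.710 CPM in Cvi-0 ozone libraries and 9.25 ± 2.92 CPM in Col-0 ozone libraries (SD, n = 3).

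**Figure D5:**
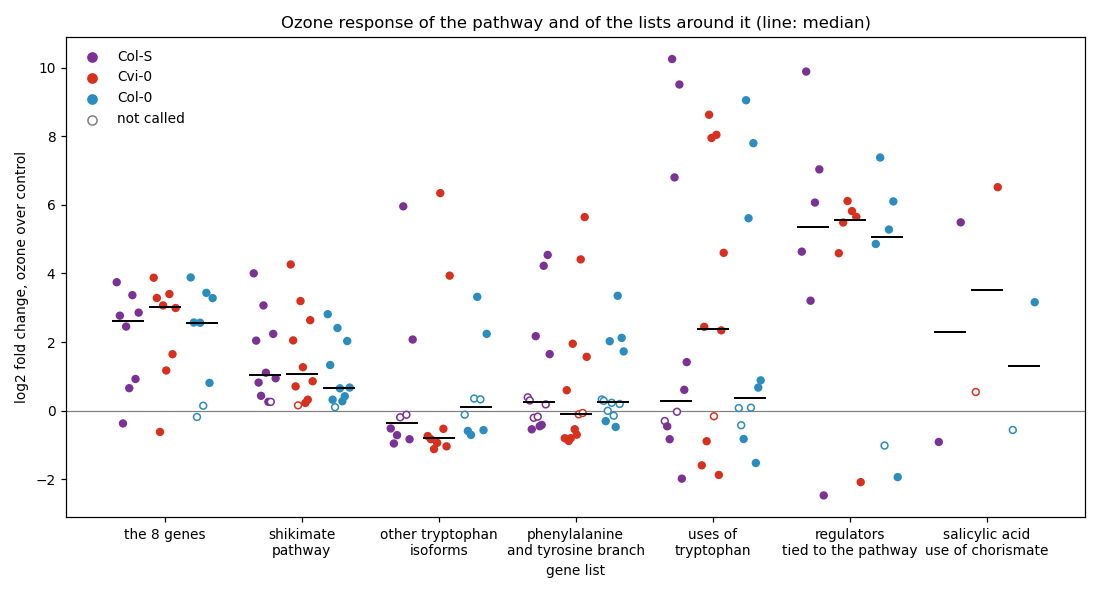
Log2 fold change of ozone over control for the 8 genes and for 6 gene lists around them, in Col-S, Cvi-0 and Col-0. Each point is a gene, open points were not called and lines are medians of the list in that genotype. The medians of the 8 genes are 2.61, 3.03 and 2.57, and those of the shikimate pathway are 1.02, 1.06 and 0.66.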

How the data were processed

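RNA from rosettes was sequenced in 18 libraries, prepared with the TruSeq RNA kit v2 per the labels. The authors deposited raw read counts per gene with no normalization. FastQC, TopHat2, SAMtools and HTSeq are the tools, and TAIR10 the build, in the submitters' processing notes. Versions, strandedness and the treatment of reads with several matches were not given in the sources used here. Reads of all genotypes were counted against genes of TAIR10, whose reference is Col-0, and the effect of sequence differences in Cvi-0 was not tested. The 279 organelle genes listed have a count of 0 in every library.

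The test of the counts was edgeR's quasi-likelihood test (edgeR version 4.0.16, R version 4.3.3). After filterByExpr 20622 genes were left. Libraries were scaled by TMM, and a single fit with a mean per group had 12 residual degrees of freedom. It gave 9 comparisons, each adjusted by Benjamini-Hochberg over all tested genes. CPM values are TMM-scaled and shown as mean ± SD over 3 libraries. Ratios of counts used a pseudocount of 0.5 and an exact permutation test of labels within genotypes. The test scripts were first tested on simulated data. No library duplicated another. The alternatives were other scaling, no filter, DESeq2 1.42.0, a replicate block, only the groups compared, and libraries left out. Total counts lay between 14905841 and 26171613 per library, and errors describe these libraries only.

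The labels number the replicates 1 to 3 in each group and call them biological. Same-numbered libraries deviated together from their group means, with correlations from 0.128 to 0.279 in Col-S ozone against control and from 0.104 to 0.426 in the 3 comparisons of controls, which were taken as paired. In the other comparisons the lowest correlation was 0.0399 to 0.0496. A comparison was taken as paired only where every same-numbered correlation exceeded 0.1. Over all groups, 35 of 45 same-numbered pairs did so. The main fit held no replicate term in any comparison, and the replicate block stands beside it as an alternative.

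The 8 genes and the gene lists were chosen with earlier results of these data known. The genes named were all 8 and all other isoforms of the pathway, fixed genes of the shikimate, phenylalanine and tyrosine, tryptophan use, salicylic acid and regulator lists, every tissue marker by its level, and the 5 genes most like ASA1 and the 5 most like ASA2. AT1G22410, ORA47, ICS2, the 4 relatives of ASB1 on chromosome 1 and overlapping genes were named beyond that rule. So were SK1, SK2, DHS2, AT1G48860, ADT1 and ADT6, whose calls changed with the processing. Sequences, names and the exon lengths behind all values per kilobase come from RefSeq for TAIR10.1, and all coordinates printed for sequences are of that build. In it, 31912 of 32678 gene codes had a name entry and 6030 genes had identical coordinates. The upstream sequence of TSB1 is not reported here.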

Additional observations from a re-analysis of the deposited data

Results flagged for a closer look

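The ozone response of 3 genes differed between Cvi-0 and Col-0 by the interaction test, and that of 1 gene between Col-S and Cvi-0. TRP1 rose more in Cvi-0 than in Col-0, with a difference of 0.84 (95% interval 0.48 to 1.20, adjusted p = 0.0019) on the log2 scale, and its rise in Col-S minus that in Cvi-0 was -0.72 (95% interval -1.08 to -0.36, adjusted p = 0.015). AT2G04400 rose more in Cvi-0 than in Col-0 by 0.72 (95% interval 0.27 to 1.16, adjusted p = 0.019). TSB2 did so by 1.03 (95% interval 0.43 to 1.62, adjusted p = 0.013). All p-values are edgeR adjusted p-values over 20622 genes. For TRP1 the 3 Cvi-0 controls lay below all Col-0 controls and the 3 Cvi-0 ozone libraries above all Col-0 ozone libraries. The differences of AT2G04400 and TSB2 were no longer called without replicate 2 of the Col-S ozone, Col-0 ozone and Col-0 control groups, at 0.44 (adjusted p = 0.12) and 0.90 (adjusted p = 0.070). The 4 leaf markers summed to 14749 to 18107 CPM in Cvi-0 ozone libraries and 27180 to 36225 CPM in Col-0 ozone libraries, and their part in these differences was not tested.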

How the results depend on the processing

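The counts of called genes among the 8 and the 4 count ratios were recomputed under other scaling (DESeq2 size factors, total counts), DESeq2's Wald test, no filter on low counts, a replicate block, only the groups compared, libraries left out, and ASB1 summed with its relatives, which was chosen after seeing the data. Of 1872 values of single genes among the 8, 1852 kept their side of the threshold, 9 gained a call and 10 lost one. Among the 1852 are 55 that changed sign and were called in neither fit. Most of the 1872 come from fits with 1 library left out, also where it belonged to no group compared, which could change little. The 1 reversal was ASB1 in Cvi-0 against Col-0 controls, at 0.062 when summed with its relatives. The number with a different response in Cvi-0 and Col-0 was 5 with the replicate block (4 higher and 1 lower) and 1 without the 3 libraries that stood apart, in place of 3. The block added ASA2, at -0.43 (adjusted p = 0.019), and TSA1, at 0.52 (adjusted p = 0.039). DESeq2 also called TSA1, at 0.55 (adjusted p = 0.044). Between Col-S and Cvi-0 the number was 2 with DESeq2's Wald test and 2 with the replicate block, in place of 1, through TSA1 at -0.64 (adjusted p = 0.047) and -0.63 (adjusted p = 0.045). In these comparisons same-numbered libraries correlated by as little as 0.0399, and they were not taken as paired. In the comparisons treated as paired the block changed no call among the 8 genes. In Col-S ozone against control it added SK2, ADT1 and ADT6 of the lists. The main calls come from the fit without the block, also in the comparisons treated as paired. All 18 libraries correlated best with their own number. With single libraries left out, the number called ranged from 6 to 6 for ozone in Col-0, 8 to 8 in Cvi-0 and 7 to 8 in Col-S. It ranged from 2 to 4 for the response in Cvi-0 minus Col-0, 0 to 0 for Col-S minus Col-0 and 1 to 2 for Col-S minus Cvi-0. In controls it was 4 to 5 for Cvi-0 against Col-0, 0 to 0 for Col-S against Col-0 and 3 to 3 for Col-S against Cvi-0. The mean ratio differences ranged from 3.75 to 3.83 for ASA1 over ASA2, 2.29 to 2.46 for TSB1 over TSB2, -0.46 to -0.42 for ASA1 over ASB1 and -0.37 to -0.32 for TSA1 over TSB1. Permutation within replicate numbers leaves the mean ratio differences unchanged by construction, so only its p-values are new. The adjusted permutation p was 0.0052 for the first 3, each at the smallest p these permutations can give, and 0.0195 for TSA1 over TSB1. Total counts moved the median of all genes to -0.14 in Col-0, -0.18 in Cvi-0 and -0.21 in Col-S. Over all genes, the response in Col-S minus Col-0 had 1058 calls higher and 424 lower with the replicate block and 1128 and 158 with DESeq2, in place of 606 and 67, and 263 and 16 with only the groups compared. For Col-S minus Cvi-0 the block gave 879 and 643, in place of 549 and 454. Col-S controls against Col-0 controls had 96 and 189 calls with DESeq2 and 34 and 71 with only the groups compared, in place of 70 and 104.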
